A study of Mus musculus with 6 samples.

Results

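Cholesterol and fatty acid synthesis genes were followed in bulk RNA-seq of mouse brain tumors made by in utero electroporation, a method that drives DNA into cells of the embryonic brain with an electric pulse. The set was chosen by gene name, and all 34 named genes had a row among the 24537 of the deposited count table. It was divided by role into 18 sterol synthesis enzymes, 5 genes that control SREBP (the sterol regulatory element-binding proteins), 6 genes of sterol uptake, efflux and transport, and 5 fatty acid synthesis enzymes. All 6 tumors arose in CD-1 IGS mice and carried PdgfraD482V, a mutant growth factor receptor, and DNp53, per the titles; 3 libraries were titled FOXR2 for an added forkhead transcription factor and 3 were titled Control. The animals' ages and the promoters that drove the constructs were not given in the sources used here. Whether each replicate was a separate animal was not given either, so p-values measure only the spread between these libraries. A sheet deposited with the counts names the opposite group for 6 of 6 libraries, so that groups are called by their titles here, and each direction turns round if the sheet is the correct record. Reads counted under the mouse symbol Foxr2 numbered 22, 1 and 7 in FOXR2 replicates 1 to 3 and 4, 10 and 7 in Control replicates 1 to 3, so they overlapped and do not tell the records apart.

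Cells build cholesterol from acetyl-CoA through mevalonate, squalene and lanosterol. When sterols in the endoplasmic reticulum run low, Scap carries the SREBP precursors to the Golgi, where they are cut and released to raise the genes of sterol synthesis (mainly Srebf2) and fatty acid synthesis (mainly Srebf1). The Insig proteins hold Scap back when sterols are plentiful, and oxysterols then activate the liver X receptors (LXR), which raise the efflux genes Abca1 and Abcg1. In brain, cholesterol is made locally, most of all by oligodendrocytes as they form myelin.

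Depth ran from 13429489 to 17927025 counts per library, and all 34 genes passed the filter on low counts. Levels are given in CPM (counts divided by library size, which TMM factors adjust), and the difference is the log2 fold change of libraries titled FOXR2 minus libraries titled Control, ± its standard error, from edgeR's quasi-likelihood test with Benjamini-Hochberg adjustment over 13101 tested genes. Markers of oligodendrocyte precursors, 8 of 8 tested, were abundant. They summed to 6870 to 9402 CPM in the libraries titled FOXR2 and 5294 to 6080 CPM in those titled Control. Pdgfra, 1 of the 8, stood at 2497 to 3599 CPM under FOXR2 and 2018 to 2506 CPM under Control. The counts do not tell reads of the animal's own Pdgfra from any of the PdgfraD482V construct, so these sums are not a measure of precursor cells alone. Endothelial markers summed to 1.31 to 15.2 CPM in the libraries titled FOXR2 and 3.14 to 3.96 CPM in those titled Control. The 9 neuron markers summed to 404 to 500 CPM in the libraries titled FOXR2 and 104 to 187 CPM in those titled Control. Of the 8 tested, 7 were fitted above 0 and Nefl below, with means of 23.0 CPM under FOXR2 and 47.9 CPM under Control. Dcx, Tubb3 and Syt1 had the highest means under FOXR2 (188, 119 and 81.9 CPM). A sum of marker transcripts is not a count of cells, and the part of these cell types in the results was not tested. Xist and Y-linked transcripts placed FOXR2 replicate 2 and Control replicates 2 and 3 as female, and the other libraries as male. Each group thus came from more than 1 animal, though whether every library was a separate animal is not known.

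None of the 34 genes passed the adjusted threshold of 0.05, where edgeR called 1.38% of all tested genes lower and 0.908% higher in the libraries titled FOXR2. Their smallest adjusted p was 0.0575. At an unadjusted p under 0.05, 8 genes (23.5%) were lower and 4 (11.8%) higher, against 13.0% and 11.9% of all tested genes. The groups did not overlap for 10 genes (29.4%) that were lower and 2 (5.88%) that were higher, against 17.2% and 13.1% of all tested genes. DESeq2, run as an alternative, called 3 of the 34 lower (Lss, Insig1 and Scd1) and 3 higher (Abca1, Abcg1 and Mylip), where it called 7.06% of genes lower and 7.02% higher.

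**Figure D1:**
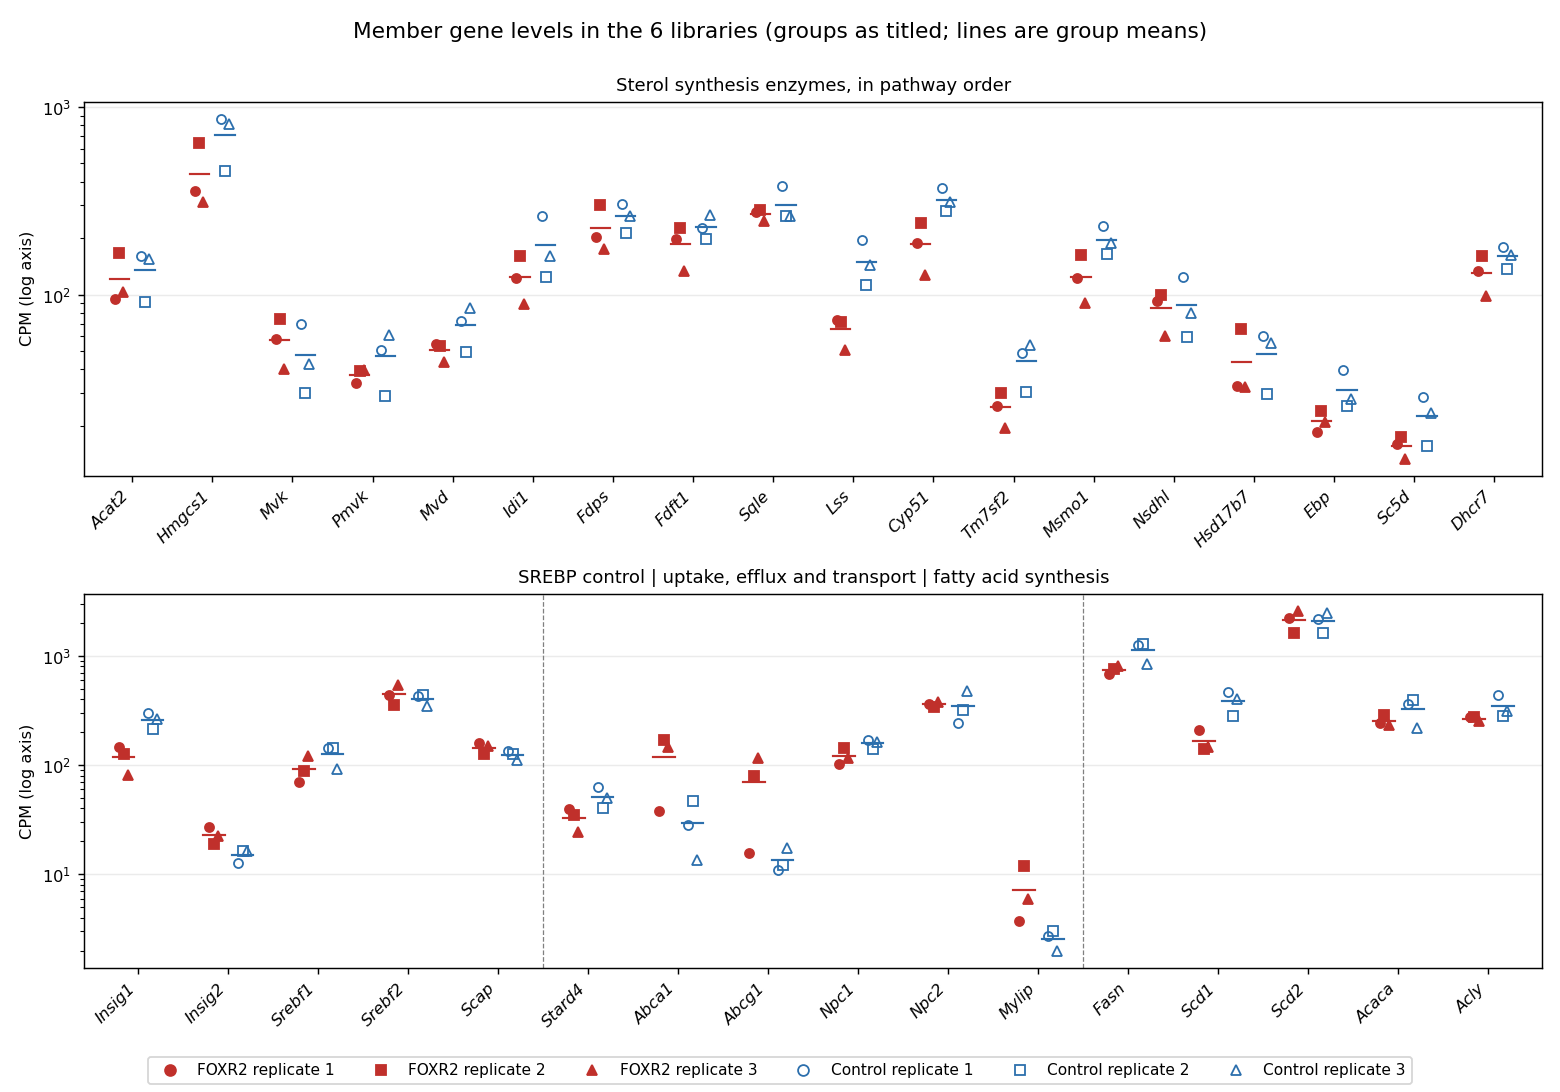
Levels of the 34 genes in CPM (log axis) in each of the 6 libraries, with libraries titled FOXR2 filled and left and libraries titled Control open and right; lines are group means. Lss, Insig1 and Scd1 lie lower in every library titled FOXR2 than in any titled Control, and Abca1 and Abcg1 stand apart in FOXR2 replicates 2 and 3.

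Of the 18 sterol synthesis enzymes, 17 had a fitted value below 0, that is lower in the libraries titled FOXR2, against 49.3% of all tested genes. Their median log2 fold change was -0.39, beside 0.01 over all tested genes. The number below 0 fell to 14 when Control replicate 1 was dropped, and to 16 or 15 when FOXR2 replicate 1 or 3 was. The enzymes also moved together inside a group, with Control replicate 2 below the other libraries titled Control for 18 of 18. Its median log2 ratio to the Control mean was -0.50, beside -0.50, -0.17 and -0.68 in FOXR2 replicates 1 to 3. The 17 are thus not independent, and 49.3% is not a full background for them. At an unadjusted p under 0.05, 4 of the 18 (22.2%) were lower and 0 higher, with 13.0% and 11.9% as the shares of all tested genes. Those 4, Lss, Cyp51, Tm7sf2 and Msmo1, encode lanosterol synthase and enzymes of the steps that follow lanosterol. The count rested on single libraries, with 1 gene under that p without Control replicate 1 and 2 without Control replicate 3 or FOXR2 replicate 3, but 9 without Control replicate 2.

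Lss closes the sterol ring to make lanosterol. It stood at 73.5, 72.0 and 50.5 CPM in FOXR2 replicates 1 to 3, against 195, 112 and 144 CPM in Control replicates 1 to 3. All 3 libraries titled FOXR2 were below all 3 titled Control, and the means were 65.3 ± 12.9 CPM in the libraries titled FOXR2 and 150 ± 41.7 CPM in those titled Control (SD, n = 3 each). The log2 fold change was -1.20 ± 0.26, with an adjusted p of 0.0601 by edgeR and 0.00174 by DESeq2.

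Cyp51, which removes a methyl group from lanosterol, stood at 188, 242 and 128 CPM in the libraries titled FOXR2 and 372, 279 and 313 CPM in those titled Control (fitted difference on the log2 scale -0.79 ± 0.26, edgeR adjusted p = 0.130). Tm7sf2, a sterol reductase of the next step, stood at 25.5, 30.1 and 19.6 CPM in the libraries titled FOXR2 and 49.0, 30.4 and 53.7 CPM in those titled Control (-0.82 ± 0.28, adjusted p = 0.132). The groups of Tm7sf2 were separated by less than 1 CPM, between FOXR2 replicate 2 and Control replicate 2. Msmo1, which oxidises the methyl groups at carbon 4, had 123, 162 and 90.9 CPM in the libraries titled FOXR2 and 233, 165 and 189 CPM in those titled Control (-0.64 ± 0.26, adjusted p = 0.180). Ebp, a sterol isomerase, also did not overlap between groups, at 18.5, 24.1 and 20.9 CPM in the libraries titled FOXR2 and 39.5, 25.7 and 27.9 CPM in those titled Control (adjusted p = 0.209).

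Along the pathway, the 8 enzymes from acetoacetyl-CoA to squalene had a median log2 fold change of -0.31, with 0 under an unadjusted p of 0.05 and 0 without overlap. The 10 enzymes from squalene onward had a median of -0.54, with 4 lower under that p and 5 lower without overlap, where 13.0% and 17.2% of all tested genes were; the difference between the stretches was not tested. Hmgcs1, which makes HMG-CoA, had the largest fitted difference of the early enzymes at 356, 644 and 313 CPM in the libraries titled FOXR2 and 867, 457 and 813 CPM in those titled Control (-0.70 ± 0.36, edgeR adjusted p = 0.269). FOXR2 replicate 2 lay above Control replicate 2 there, so the groups overlapped. Without FOXR2 replicate 2 the value was -1.09 (adjusted p = 0.111). Idi1, which isomerises the isoprenoid unit, Mvd, the mevalonate diphosphate decarboxylase, and Sc5d, a late desaturase, had log2 fold changes of -0.56, -0.45 and -0.52 (edgeR adjusted p = 0.349, 0.286 and 0.290).

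The remaining enzymes overlapped between the groups. Mvk, mevalonate kinase, was the 1 enzyme fitted above 0, at 58.1, 74.0 and 40.0 CPM in the libraries titled FOXR2 and 70.0, 30.1 and 42.8 CPM in those titled Control (0.27 ± 0.36, edgeR adjusted p = 0.680). Pmvk, the next kinase, Fdft1, squalene synthase, and Dhcr7, the reductase of the last step, had values of -0.32, -0.30 and -0.29 (adjusted p = 0.514, 0.477 and 0.478). Acat2, the first thiolase, Fdps, which makes farnesyl diphosphate, and Sqle, the squalene epoxidase, had -0.16, -0.20 and -0.16 (adjusted p = 0.784, 0.663 and 0.678). Nsdhl and Hsd17b7, which remove the methyl groups at carbon 4 together with Msmo1, had -0.06 and -0.15 (adjusted p = 0.930 and 0.834), and their sign turned in some fits with 1 library left out, as did that of Sqle.

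Several of these counts are uncertain because reads of 51 bases can match other genes. Of the 51-base windows in its longest coding transcript, Fdps shared 86.2% with transcripts of other genes, mostly predicted genes of the Gm series. Acat2 shared 45.7% with Acat3, Idi1 21.3% and Fdft1 10.6% with predicted genes. On the opposite strand, 19.8% of the windows of Fdft1 lay in Ctsb and 13.1% of those of Acat2 in Tcp1, and whether strand was used in counting is not given in the sources used here. Hmgcs1, Scap, Idi1 and Npc1 shared 13.5%, 13.0%, 9.2% and 8.9% on the opposite strand. Cyp51, Lss and Insig1 shared 0.1%, 0% and 2.4% on the same strand and 3.0%, 4.3% and 0% on the opposite strand. Tm7sf2 and Msmo1 shared 0% on either strand.

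Summed over the 18 enzymes, the levels did not separate the groups. The sums were 2104, 2826 and 1699 CPM in FOXR2 replicates 1 to 3, and 3677, 2308 and 3154 CPM in Control replicates 1 to 3. FOXR2 replicate 3 was the lowest of the 6 libraries for 12 of the 18 enzymes and Control replicate 1 the highest for 11. Control replicate 2 was the lowest for 5, and FOXR2 replicate 2 the highest for 3. Within the female libraries, FOXR2 replicate 2 (2826 CPM) lay between Control replicates 2 and 3 (2308 and 3154 CPM), while within the male libraries FOXR2 replicates 1 and 3 (2104 and 1699 CPM) lay below Control replicate 1 (3677 CPM). With animal sex as a covariate, Lss had a log2 fold change of -1.24 and an edgeR adjusted p of 0.133.

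Markers of mature oligodendrocytes, the myelin-forming cells, also differed between libraries. Over 12 markers, of which 9 were tested, they came to 265, 5540 and 1517 CPM in FOXR2 replicates 1 to 3, and 1940, 371 and 4434 CPM in Control replicates 1 to 3. The 3 libraries with the most of these markers, FOXR2 replicate 2 and Control replicates 1 and 3, were also the 3 with the highest summed sterol enzymes, but not in the same order. FOXR2 replicate 3 and Control replicate 1, close in these markers (1517 and 1940 CPM), had the lowest and the highest enzyme sums (1699 and 3677 CPM). None of the 9 tested markers reached an unadjusted p of 0.05 between the groups. Mog, a late myelin gene, stood at 25.2 CPM in FOXR2 replicate 2 and at or below 0.232 CPM in each of the other libraries, with 0 counts in Control replicate 2. Mobp was at 0 counts in FOXR2 replicate 3 and Ermn in Control replicate 3. In bulk RNA, fewer cells of a type and less RNA per cell cannot be told apart, and the part of these cells in the sterol enzyme levels was not tested.

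**Figure D2:**
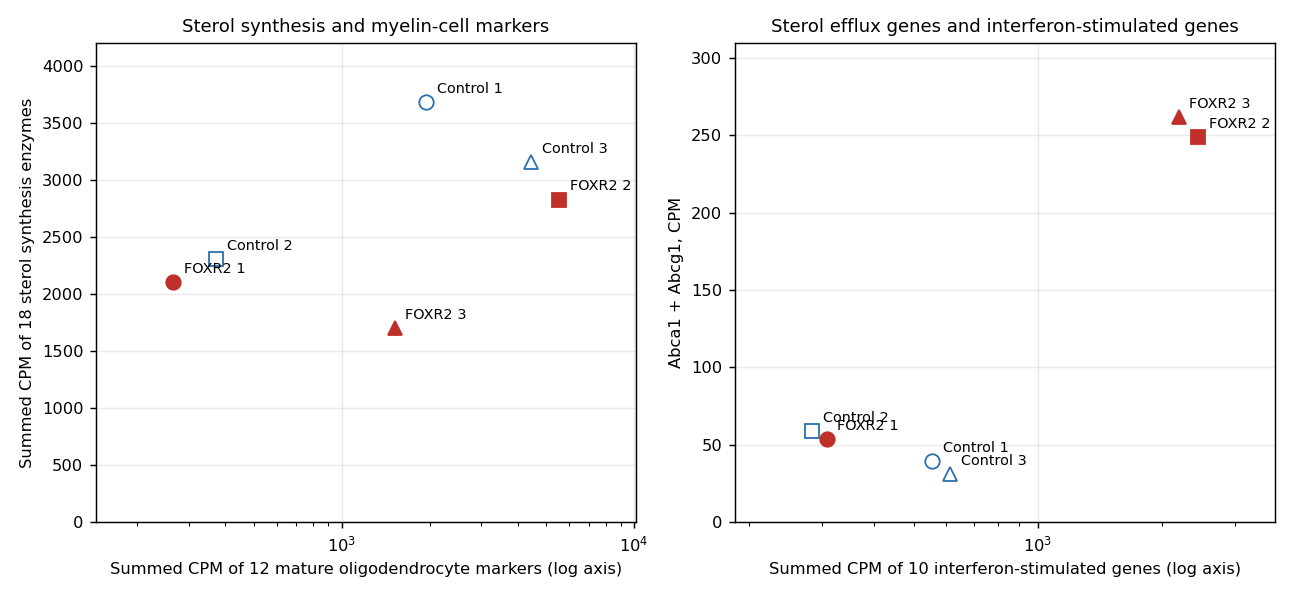
Left, summed CPM of the 18 sterol synthesis enzymes against summed CPM of 12 mature oligodendrocyte markers (log axis); right, Abca1 plus Abcg1 in CPM against summed CPM of 10 interferon-stimulated genes (log axis), each point a library. FOXR2 replicate 2 (5540 CPM of myelin-cell markers) stands with Control replicates 1 and 3 on the left, and FOXR2 replicates 2 and 3 stand apart from the other 4 libraries on the right.

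The genes of SREBP control had a median log2 fold change of 0.14, with 1 of 5 lower and 1 of 5 higher at an unadjusted p under 0.05 (20.0% each, against 13.0% and 11.9% of all tested genes). The higher count stayed at 1 without FOXR2 replicate 2 and was 0 without any other single library, and without FOXR2 replicate 3 there were 2 lower. Insig1, which retains Scap and is itself raised by SREBP, stood at 147, 126 and 80.9 CPM in FOXR2 replicates 1 to 3, against 301, 215 and 263 CPM in Control replicates 1 to 3. Every library titled FOXR2 was lower than every library titled Control, which fixes the same order within each sex. The log2 fold change was -1.14 ± 0.26 (edgeR adjusted p = 0.0657, DESeq2 adjusted p = 0.00289). With animal sex as a covariate Insig1 came to -1.16 (edgeR adjusted p = 0.149). Insig2, its paralog, was higher at 26.9, 18.8 and 22.5 CPM in the libraries titled FOXR2 and 12.7, 16.2 and 16.3 CPM in those titled Control (0.59 ± 0.24, edgeR adjusted p = 0.183), again without overlap.

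The ratio of Insig1 to Insig2 came to 5.46, 6.71 and 3.60 where the title was FOXR2, against 23.7, 13.3 and 16.1 where it was Control. As Insig1 was lower and Insig2 higher without overlap, this ratio had to separate the groups. The genes of the SREBP proteins themselves overlapped between groups. Srebf1 stood at 70.3, 87.2 and 120 CPM in the libraries titled FOXR2 and 143, 143 and 91.2 CPM in those titled Control (-0.44 ± 0.27, edgeR adjusted p = 0.360). Srebf2 had 439, 353 and 540 CPM in the libraries titled FOXR2 and 429, 436 and 346 CPM in those titled Control (0.14 ± 0.22, adjusted p = 0.734), and Scap, the escort of both, had 158, 125 and 149 CPM in the libraries titled FOXR2 and 133, 126 and 110 CPM in those titled Control (0.23 ± 0.18, adjusted p = 0.469). The ratio of Srebf1 to Srebf2 ran between 0.160 and 0.247 where the title was FOXR2 and between 0.264 and 0.332 where it was Control. The share of all gene pairs whose ratio separates the groups was not computed, so this separation has no background. Transcript levels do not show how much SREBP was cut and active.

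**Figure D3:**
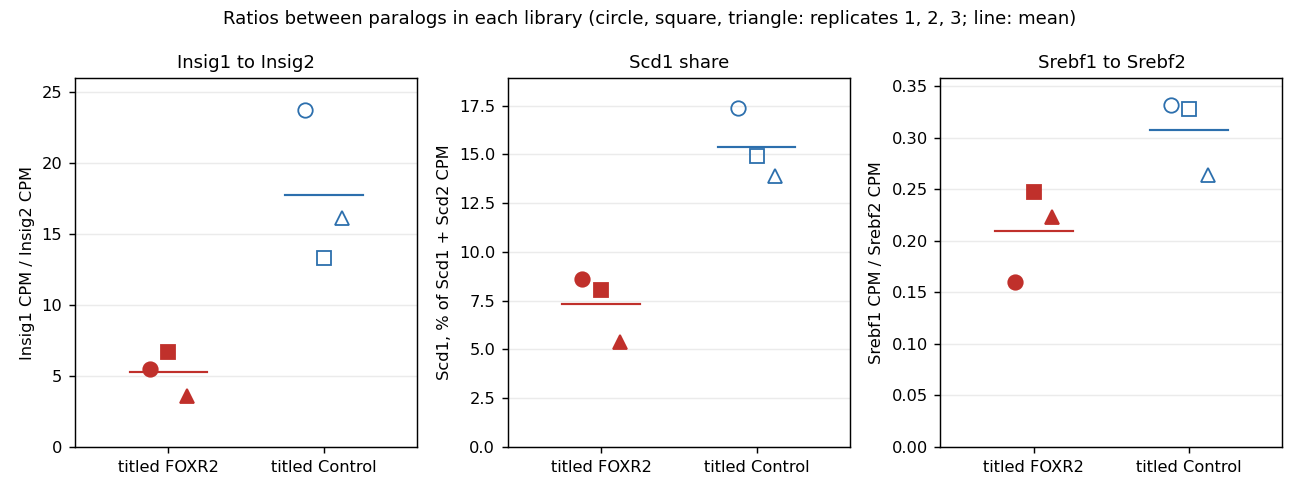
Ratios between paralogs in each library, with libraries titled FOXR2 left and libraries titled Control right, each on an axis from 0; lines are means. Insig1 to Insig2 (3.60 to 6.71 for FOXR2 and 13.3 to 23.7 for Control), the Scd1 share and Srebf1 to Srebf2 do not overlap between the groups. Insig1 and Insig2 each separated in opposite directions already, and the share of other gene pairs that separate was not computed.

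RefSeq promoters (build GRCm38.p6) were read for 26 of the 34 genes, and for none of Fdps, Fdft1, Sqle, Stard4, Abcg1, Npc1, Scd1 and Scd2; the 250 bases before each annotated start were searched on both strands for CCAAT, the box bound by NF-Y, for GGGCGG, a GC box, and for TCACCCCA, the core of a sterol regulatory element. SREBP is known to act together with NF-Y and Sp1. CCAAT was in at least 1 promoter of 14 of 15 sterol synthesis enzymes (93.3%), 4 of 5 SREBP control genes (80%), 2 of 3 transport genes (66.7%) and 1 of 3 fatty acid synthesis enzymes (33.3%), against 40.9% of the 10093 tested genes with a promoter. GGGCGG was in 14 of 15 sterol synthesis enzymes (93.3%), 5 of 5 SREBP control genes, 3 of 3 transport genes and 1 of 3 fatty acid synthesis enzymes (33.3%), against 65.4% of tested genes. TCACCCCA was in 1 of 15 sterol synthesis enzymes (Hmgcs1, 6.67%) and 1 of 5 SREBP control genes (Srebf2, 20%). It was in 0 of 3 transport genes and 0 of 3 fatty acid synthesis enzymes, against 1.53% of tested genes. In the sequences below, shown for Lss and Insig1 (both lower in every library titled FOXR2), Hmgcs1 (with the sterol element letters) and Abca1 (higher, without CCAAT), capitals mark these motifs on either strand and each line ends at the annotated start.
Lss, chr10:76531355-76531604, plus strand: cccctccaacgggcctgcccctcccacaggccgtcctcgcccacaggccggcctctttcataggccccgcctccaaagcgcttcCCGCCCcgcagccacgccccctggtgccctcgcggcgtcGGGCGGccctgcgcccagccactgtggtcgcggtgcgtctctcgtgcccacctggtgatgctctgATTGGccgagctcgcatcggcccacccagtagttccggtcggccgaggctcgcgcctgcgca
Insig1, chr5:28071162-28071411, plus strand: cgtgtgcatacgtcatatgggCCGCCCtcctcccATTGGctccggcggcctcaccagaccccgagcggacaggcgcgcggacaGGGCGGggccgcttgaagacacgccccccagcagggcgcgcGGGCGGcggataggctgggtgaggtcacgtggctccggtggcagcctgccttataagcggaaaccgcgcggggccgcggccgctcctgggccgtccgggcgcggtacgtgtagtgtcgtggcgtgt
Hmgcs1, chr13:119690101-119690350, plus strand: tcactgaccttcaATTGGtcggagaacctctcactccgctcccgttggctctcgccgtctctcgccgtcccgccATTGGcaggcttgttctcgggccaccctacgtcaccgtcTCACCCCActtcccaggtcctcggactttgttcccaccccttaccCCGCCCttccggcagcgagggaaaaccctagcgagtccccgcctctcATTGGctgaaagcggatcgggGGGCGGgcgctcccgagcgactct
Abca1, chr4:53159896-53160145, minus strand: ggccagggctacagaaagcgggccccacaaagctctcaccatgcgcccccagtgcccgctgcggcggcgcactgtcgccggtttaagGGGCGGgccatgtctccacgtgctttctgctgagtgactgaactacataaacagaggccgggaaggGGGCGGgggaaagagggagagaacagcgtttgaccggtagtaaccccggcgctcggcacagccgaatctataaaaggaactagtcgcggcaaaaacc

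The CCAAT box began 62 bases before the start in Lss and 216 bases before it in Insig1. Hmgcs1 held CCAAT at 237, 176 and 45 bases before the start and TCACCCCA at 137, and Abca1 held 2 GC boxes, at 163 and 97. CCAAT was not limited to the lower genes, with 5 copies in Mvk, fitted above 0, and 3 in Mylip, also higher. Cyp51, which was lower, had 1 copy, and Acly and Acaca, fitted below 0, had 0. A match describes the letters only and says nothing of binding.

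Of the 6 sterol uptake, efflux and transport genes, 3 (50.0%), Abca1, Abcg1 and Mylip, were higher in the libraries titled FOXR2 at an unadjusted p under 0.05 and 0 passed the adjusted threshold of edgeR, with 11.9% of all tested genes as the background; 1 of the 6 (16.7%) was lower. Without FOXR2 replicate 2 or Control replicate 3, 2 were higher, and without FOXR2 replicate 3, Control replicate 1 or Control replicate 3, 0 were lower. Abca1, which loads cholesterol onto lipid-poor apolipoproteins, stood at 38.0, 169 and 147 CPM in FOXR2 replicates 1 to 3, against 28.5, 46.8 and 13.6 CPM in Control replicates 1 to 3. Abcg1, which passes cholesterol on to mature lipoprotein particles, stood at 15.5, 80.0 and 115 CPM in the libraries titled FOXR2 and 11.0, 12.1 and 17.3 CPM in those titled Control. For both genes FOXR2 replicate 1 lay within the range of the libraries titled Control, and FOXR2 replicates 2 and 3 were above it. The log2 fold changes were 1.99 ± 0.63 for Abca1 and 2.38 ± 0.65 for Abcg1 (edgeR adjusted p = 0.115 and 0.0891; DESeq2 adjusted p = 0.00735 and 0.00118).

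Mylip, the ubiquitin ligase that degrades lipoprotein receptors and is another LXR target, was low in all libraries, at 3.72, 11.9 and 5.98 CPM in the libraries titled FOXR2 and 2.70, 3.04 and 1.98 CPM in those titled Control. The groups did not overlap, and the log2 fold change was 1.48 ± 0.50 (edgeR adjusted p = 0.132, DESeq2 adjusted p = 0.0495). Without FOXR2 replicate 2 the values were 1.64 for Abca1, 2.27 for Abcg1 and 0.91 for Mylip (edgeR adjusted p = 0.187, 0.126 and 0.267).

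Marker sums are given beside these 3 genes. The 8 astrocyte markers, all tested, summed to 801, 617 and 1818 CPM in FOXR2 replicates 1 to 3. In Control replicates 1 to 3 they summed to 835, 603 and 743 CPM, and 3 of the 8 were fitted below 0 and 5 above. The 11 microglia and macrophage markers, 2 of them tested, summed to 4.76, 1165 and 4.89 CPM in FOXR2 replicates 1 to 3 and to 9.41, 12.3 and 13.9 CPM in Control replicates 1 to 3. Abca1 and Mylip were highest in FOXR2 replicate 2 (169 and 11.9 CPM), where the microglia sum was 1165 CPM. Abcg1 was highest in FOXR2 replicate 3 (115 CPM), where that sum was 4.89 CPM. The 10 interferon-stimulated genes, all tested, summed to 308, 2439 and 2187 CPM in the libraries titled FOXR2 and 554, 284 and 613 CPM in those titled Control, so that FOXR2 replicates 2 and 3 were again the high libraries. The parts of astrocytes, of microglia and of the interferon state in the levels of Abca1, Abcg1 and Mylip were not tested. The LXR genes were named after their values were seen. Nr1h2, of LXR beta, stood at 56.0, 46.3 and 54.2 CPM in the libraries titled FOXR2 and 63.7, 94.9 and 68.4 CPM in those titled Control (-0.54 ± 0.21, edgeR adjusted p = 0.172), and Nr1h3, of LXR alpha, at 0.261 to 1.33 CPM in the libraries titled FOXR2 and 0.358 to 0.720 CPM in those titled Control.

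The carrier and lysosomal genes had fitted values near or below 0. Stard4, a soluble carrier that returns cholesterol to the endoplasmic reticulum and is a known SREBP target, stood at 39.5, 35.2 and 24.4 CPM in the libraries titled FOXR2 and 63.1, 40.6 and 49.6 CPM in those titled Control (-0.63 ± 0.25, edgeR adjusted p = 0.184). All 3 libraries titled FOXR2 were below all 3 titled Control, though FOXR2 replicate 1 and Control replicate 2 were close. Npc1, which exports cholesterol from lysosomes, had 101, 142 and 115 CPM in the libraries titled FOXR2 and 170, 141 and 162 CPM in those titled Control (-0.40 ± 0.19, adjusted p = 0.249). Npc2, which hands it over inside the lysosome, had 363, 336 and 379 CPM in the libraries titled FOXR2 and 243, 320 and 477 CPM in those titled Control (0.05 ± 0.26, adjusted p = 0.919).

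Of the 5 fatty acid synthesis enzymes, 4 had a fitted value below 0, their median value was -0.37 on the log2 scale, and 2 of the 5 (40.0%) were lower at an unadjusted p under 0.05, beside 13.0% of all tested genes. That count was 1 without FOXR2 replicate 1 or 2 or Control replicate 1 or 2. Scd1, a stearoyl-CoA desaturase, had the smallest p of all 34 genes. It stood at 207, 141 and 146 CPM in FOXR2 replicates 1 to 3, against 462, 283 and 398 CPM in Control replicates 1 to 3, with means of 165 ± 36.7 CPM under the title FOXR2 and 381 ± 90.7 CPM under Control (SD, n = 3 each). The groups did not overlap, and the log2 fold change was -1.21 ± 0.26 (edgeR adjusted p = 0.0575, DESeq2 adjusted p = 0.000819). The lack of overlap fixes the same order within each sex. With animal sex as a covariate Scd1 came to -1.33 (edgeR adjusted p = 0.122).

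Scd2, the main desaturase of brain, was far more abundant and had nearly equal group means, at 2199, 1614 and 2559 CPM in the libraries titled FOXR2 and 2185, 1615 and 2459 CPM in those titled Control (0.03 ± 0.25, edgeR adjusted p = 0.960). Per kilobase of transcript, Scd2 had a mean level of 389 CPM in FOXR2-titled and 382 CPM in Control-titled libraries, and Scd1 of 34.1 CPM in FOXR2-titled and 78.8 CPM in Control-titled libraries. Scd1 made up 8.61, 8.05 and 5.40% of the summed Scd1 and Scd2 CPM in the libraries titled FOXR2, against 17.4, 14.9 and 13.9% in those titled Control. The genes shared few 51-base windows with other transcripts (4.5% for Scd1 and 3.9% for Scd2), and the further copies Scd3 and Scd4 stayed at or below 0.522 CPM in every library.

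Fasn, the fatty acid synthase, stood at 678, 749 and 805 CPM in the libraries titled FOXR2 and 1251, 1273 and 832 CPM in those titled Control (-0.59 ± 0.22, edgeR adjusted p = 0.157). The groups did not overlap, but Control replicate 3 was close to FOXR2 replicate 3. Acly, which makes cytosolic acetyl-CoA from citrate, had 272, 274 and 252 CPM in the libraries titled FOXR2 and 439, 281 and 314 CPM in those titled Control (-0.37 ± 0.21, adjusted p = 0.317), also without overlap. Acaca, the acetyl-CoA carboxylase, had 243, 289 and 232 CPM in the libraries titled FOXR2 and 365, 392 and 218 CPM in those titled Control (-0.35 ± 0.25, adjusted p = 0.431), and 52.3% of its windows were shared with the predicted gene Gm5182. When transcript length and GC content were adjusted for, the values of Fasn and Acaca were -0.91 and -0.66 (edgeR adjusted p = 0.0826 and 0.169). This adjustment did not enlarge every difference. Lss and Scd1 came to -1.33 and -1.36, but Abca1, Abcg1 and Tm7sf2 had smaller differences, at 1.71, 2.14 and -0.64.

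**Figure D4:**
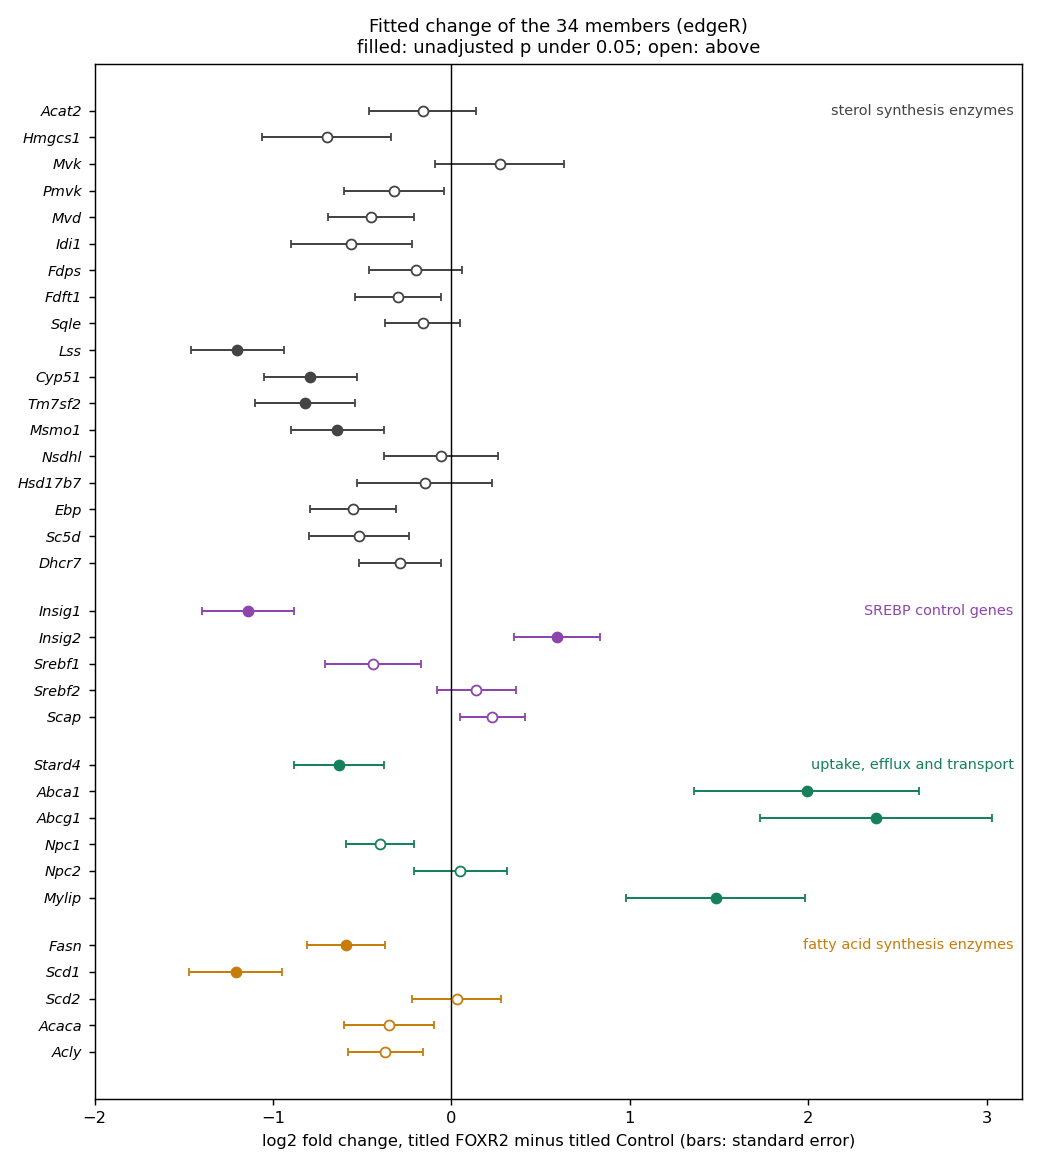
Log2 fold changes (libraries titled FOXR2 minus titled Control) of the 34 genes with standard errors from edgeR, in pathway order by role, filled where the unadjusted p was under 0.05. Lss, Insig1 and Scd1 lie near -1.2, Abca1, Abcg1 and Mylip above 1, and most other genes within 0.7 of 0.

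Further genes of these pathways were read from lists of enzymes, carriers and regulators. Over the 3 lists, 36, 14 and 40 genes were tested and 1 was called, Acss2, lower, where edgeR called 1.38% of all tested genes lower and 0.908% higher. Acss2, which makes cytosolic acetyl-CoA from acetate and is a known SREBP target, stood at 31.1, 29.6 and 25.2 CPM in FOXR2 replicates 1 to 3, against 80.6, 52.9 and 67.4 CPM in Control replicates 1 to 3. Its log2 fold change was -1.23 ± 0.21 (edgeR adjusted p = 0.0437), and the groups did not overlap. The value was below 0 in 14 of 14 alternatives, and 4 of them called it (adjusted p from 0.000165 to 0.145). The call was lost with any 1 library left out.

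Among the 36 genes of mevalonate branches and sterol handling, 3 were lower and 8 higher at an unadjusted p under 0.05 (8.33% and 22.2%, against 13.0% and 11.9% of all tested genes). The smallest p belonged to Lrp1, a large receptor that takes up lipoproteins, at 1034, 421 and 685 CPM in the libraries titled FOXR2 and 245, 252 and 288 CPM in those titled Control (1.45 ± 0.32, edgeR adjusted p = 0.0615). Osbpl8, a lipid exchanger between membranes, and Gramd1b, which moves cholesterol from the plasma membrane to the endoplasmic reticulum, had log2 fold changes of 0.83 and 1.13 (adjusted p = 0.0795 and 0.0822). When transcript length and GC content were adjusted for, Lrp1, Osbpl8 and Gramd1b had smaller values of 1.09, 0.55 and 0.84 (edgeR adjusted p = 0.0954, 0.172 and 0.138).

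Of the 14 genes of SREBP processing and LXR, 4 were lower and 1 higher at that p (28.6% and 7.14%, against the same 13.0% and 11.9%). Mlx, a partner of carbohydrate-sensing factors, and Sec24c, a coat subunit of vesicles that leave the endoplasmic reticulum, had -0.73 and -0.64 (edgeR adjusted p = 0.0700 and 0.0812). Rxra, which pairs with LXR, had 0.78 (adjusted p = 0.0957). Its paralog Rxrb, 1 of the 4 lower genes, went the other way with -0.70 (edgeR adjusted p = 0.158), without overlap between the groups. Of the 40 genes of fatty acid supply and use, 5 were lower and 3 higher (12.5% and 7.50%), both shares below those of all tested genes. After Acss2 came Agpat2, an acyltransferase of phospholipid and triglyceride synthesis, with -2.09, and Lpin1, a phosphatidate phosphatase, with 1.22 (adjusted p = 0.0579 and 0.0781).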

How the data were processed

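Groups came from the sample titles. RNA was poly(A)-selected, made into strand-keeping libraries and sequenced as single reads, per the labels' protocols. The deposited values are whole-number read counts per gene symbol; TopHat, DESeq2 and the human build hg19 are named in the submitters' processing notes, although the symbols are those of mouse. The sources used here do not give the counting tool or annotation, and 23 rows with dates in place of symbols are not named.

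These counts entered edgeR 4.0.16 under R 4.3.3: filterByExpr with a count minimum of 10, TMM factors, and the quasi-likelihood test over 13101 genes with no covariate (prior count 0.125). Calls used a Benjamini-Hochberg adjusted p under 0.05. Alternatives were DESeq2 1.42.0 (after the same filter), scaling by RLE factors or by total count, all genes without the low-count filter, limma-voom (limma 3.58.1), the replicate number as a block, animal sex, an offset for transcript length and GC content (mgcv 1.9.3; 99.4% of tested genes had both), and each library left out. Lengths are those of the longest GENCODE M21 coding transcript. Members, lists and tests were chosen with earlier results of these data known. Values per library are given for the members of each role with an unadjusted p under 0.05, and at least for the 3 with the smallest p. Of the other pathway genes, the 3 with the smallest p in each list and any called one are named. Nr1h2, Nr1h3, Rxrb, Scd3 and Scd4 are named besides. At these depths 3 counts came to 0.174 to 0.219 CPM, a floor for counting error only.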

Additional observations from a re-analysis of the deposited data

How the results depend on the processing

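Of 476 values of the 34 members under 14 alternatives, 456 kept their direction and side of the adjusted threshold, 6 passed it (all by DESeq2) and 14 changed sign. The sign changes were in values near 0. With the length and GC offset, Nsdhl came to 0.03, Srebf2 to -0.02 and Scd2 to -0.17, and with animal sex Scd2 came to -0.11. With single libraries left out, values ran from -0.25 to 0.04 for Sqle, -0.27 to 0.27 for Nsdhl, -0.58 to 0.03 for Hsd17b7, -0.03 to 0.28 for Srebf2, -0.15 to 0.35 for Npc2 and -0.13 to 0.19 for Scd2. The causes were not tested.

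DESeq2 called 1 sterol synthesis enzyme, 1 SREBP control gene, 3 transport genes and 1 fatty acid enzyme, where edgeR called 0 of each with every alternative of its own, and limma-voom also 0. Over all tested genes, where edgeR called 119 higher and 181 lower, DESeq2 called 916 and 921. The length and GC offset gave 74 and 95, total-count scaling gave 105 and 119, and animal sex as a covariate 7 and 0, with 1127 higher and 1271 lower at an unadjusted p under 0.05. With 1 library left out, 1 to 123 were higher and 0 to 82 lower.

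Members with an unadjusted p under 0.05 numbered 1 to 9 among sterol synthesis enzymes with 1 library left out, 1 to 2 among SREBP control genes, 2 to 4 among transport genes and 1 to 3 among fatty acid enzymes. Without the low-count filter SREBP control genes had 1, and the same number with animal sex. The replicate numbers did not pair the libraries: the deviations of same-numbered libraries correlated at -0.006, -0.229 and -0.009, and 0 of 6 libraries correlated best with their own number. With the replicate block edgeR called 0 genes higher and 0 lower over all genes (1218 and 1434 at an unadjusted p under 0.05), and 2 sterol synthesis enzymes, 1 SREBP control gene and 1 fatty acid enzyme were under that p.

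Of the other pathway genes DESeq2 called 6 lower and 9 higher. Acss2, the 1 called by edgeR, lost its call with total-count scaling, the replicate block, animal sex or the length and GC offset (0 called lower each; log2 fold changes of -1.20, -1.21, -1.27 and -1.21, against -1.23), and with any 1 library left out (0 lower, and 0 to 2 higher). Under an unadjusted p of 0.05, 7 were lower with animal sex and 7 higher with the replicate block, and with 1 library left out 8 to 14 were lower and 7 to 11 higher.

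Each member had at least 34 counts in each library. With 3 libraries a group, Lss, Insig1 and Scd1, with log2 fold changes of -1.20, -1.14 and -1.21 and standard errors of 0.26, missed the adjusted threshold of the edgeR fit.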
